A study of Mus musculus with 8 samples.

Results

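Collagen VI, collagen VIII and the collagens that span the cell membrane were followed here through 10 chain genes: Col6a1, Col6a2, Col6a3, Col6a5, Col6a6, Col8a1, Col8a2, Col13a1, Col23a1 and Col25a1. The genes were picked by name from the 20681 rows of a mouse knee joint expression table, and each name was found once. RNA was measured by poly-A sequencing in 8 knee joints, 4 with a control label and 4 with a label of Loxl2 knockout; Loxl2 encodes a lysyl oxidase that cross-links collagen and elastin. The series design places every joint in the Acan-Cre;Loxl2 fl/fl background, in which Cre recombinase is driven by the aggrecan gene of cartilage cells and the Loxl2 alleles can be deleted by it. Control joints were treated with vehicle, and what the joints labelled knockout received in its place is not given in the sources used here. All 8 library names carry DMM, commonly the abbreviation of destabilisation of the medial meniscus, a surgical injury of the knee. The names also tag the control libraries LOXL2wt, commonly short for wild type, and the others LOXL2ko. The age and sex of the mice, the time of sampling and whether each library is 1 animal are not given either, so p-values measure the spread between these samples, which may be technical in part.

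Collagen VI is built from the products of Col6a1 and Col6a2 with the third, longer chain, usually that of Col6a3, and its tetramers join end to end into beaded microfilaments. It surrounds chondrocytes as part of the pericellular matrix, ensheathes muscle fibres, and is made mainly by fibroblasts. The products of Col6a5 and Col6a6 can take the place of the Col6a3 chain. Collagen VIII, from Col8a1 and Col8a2, is a short-chain collagen that forms open networks in vessel walls and under the corneal endothelium. Collagens XIII, XXIII and XXV, from Col13a1, Col23a1 and Col25a1, are membrane proteins whose collagenous outer part can be shed by furin-like proteases. Collagen XIII is a known component of the neuromuscular junction, and collagen XXV is known for its part in the innervation of muscle.

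The promoter windows of the chains that assemble with each other are shown first, since the results turn on whether partner chains moved together. Sequences are RefSeq's on build GRCm38.p6, written 5′ to 3′ on the gene's strand and ending before the first base of the transcript; those of Col6a1 and Col8a2 are trimmed to the bases that also lie before the start in GENCODE. Capitals mark matches on either strand to the 5 motifs searched: the AP-1 site TGANTCA, the GC box GGGCGG, the TATA box TATAAA, the CCAAT box CCAAT and the TEAD site GGAATG.
Col6a1, chr10:76726169-76726294, minus strand: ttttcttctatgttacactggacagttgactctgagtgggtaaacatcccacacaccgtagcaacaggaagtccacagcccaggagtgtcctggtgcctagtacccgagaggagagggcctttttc
Col6a2, chr10:76623631-76623880, minus strand: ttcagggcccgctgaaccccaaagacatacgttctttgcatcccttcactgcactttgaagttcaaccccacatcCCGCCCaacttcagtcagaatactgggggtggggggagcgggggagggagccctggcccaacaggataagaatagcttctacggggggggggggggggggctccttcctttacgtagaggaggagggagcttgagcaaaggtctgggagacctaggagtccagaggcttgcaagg
Col6a3, chr1:90843972-90844221, minus strand: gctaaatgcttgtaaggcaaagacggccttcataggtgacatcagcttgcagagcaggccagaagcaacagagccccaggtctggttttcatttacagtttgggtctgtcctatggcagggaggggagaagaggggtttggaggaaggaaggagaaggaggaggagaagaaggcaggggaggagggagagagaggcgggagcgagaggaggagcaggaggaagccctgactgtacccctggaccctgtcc
Col8a1, chr16:57754738-57754987, minus strand: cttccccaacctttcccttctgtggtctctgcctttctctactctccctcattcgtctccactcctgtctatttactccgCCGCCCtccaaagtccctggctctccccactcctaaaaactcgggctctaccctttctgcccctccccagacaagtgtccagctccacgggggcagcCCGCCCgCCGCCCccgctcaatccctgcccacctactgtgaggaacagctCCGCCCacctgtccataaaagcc
Col8a2, chr4:126286544-126286792, plus strand: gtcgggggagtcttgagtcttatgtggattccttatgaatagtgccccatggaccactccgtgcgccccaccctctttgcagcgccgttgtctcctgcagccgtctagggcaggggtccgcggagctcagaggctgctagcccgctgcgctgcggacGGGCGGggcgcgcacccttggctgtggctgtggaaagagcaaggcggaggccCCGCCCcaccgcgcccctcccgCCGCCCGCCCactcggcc
The windows of the 3 main collagen VI chains differed in what they held. That of Col6a2 had 1 GC box and that of Col6a3 had none of the 5 motifs. The full 250-base window of Col6a1 had 1 match, the AP-1 letters TGACTCA from 90 to 84 bases before its RefSeq start, which lies after the bases shown. For Col6a2 RefSeq lists another start 226 bases further into the gene, whose 250-base window held 3 GC boxes, of which 2 overlap, and 1 TEAD match. Each collagen VIII window held 4 GC boxes, 2 of them overlapping in Col8a2, and none of the other motifs. Among 32851 RefSeq promoter windows of the same length, 32.7% held a GC box, 6.75% the AP-1 letters and 12.6% the TEAD letters. The GC content was 56% for Col6a1, 59.2% for Col6a2, 57.2% for Col6a3, 60.8% for Col8a1 and 70% for Col8a2, against a median of 52.4% over all windows. A match is a description of letters only.

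The libraries held 13991000 to 17411617 reads assigned to genes. Values are given as normalised read counts (reads divided by a size factor of the library), and each difference is the mean log2(value + 1) of the knockout-labelled libraries minus that of the controls. Loxl2 served as a check of the labels. Its normalised read count was 282, 349, 1135 and 311 in the control libraries (replicates 1 to 4, the order used throughout) and 893, 1468, 960 and 1518 in those labelled knockout, with a log2 difference of 1.44 (limma adjusted p = 0.0294, lost in 8 of 17 alternatives). The targeted transcript was thus higher where the label says it was deleted. A count over the whole gene in a whole joint also takes in reads from exons that Cre leaves and from cells without Cre. Why the count was higher, and whether the group labels are exchanged, was not tested. Directions below are therefore those of the libraries as labelled. For Loxl2 control replicate 3 lay above knockout replicates 1 and 3, so the groups overlapped (exact permutation p = 0.0857). The same library was also the highest control for several of the collagen chains.

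Of the 10 chains, 6 rose in the libraries labelled knockout, none fell, and 4 did not pass the test (limma, adjusted p under 0.05 over 14949 genes tested). The 6 were Col6a1, Col6a2, Col6a3, Col8a1, Col8a2 and Col13a1. The share of all tested genes called higher was 11.6%, or 1732 genes, and 1729 were called lower. Scaling the libraries without muscle and blood genes and the 50 most abundant genes moved the median log2 difference of all genes to 0.15 and the split to 2729 higher and 776 lower, and 7 of the 10 chains were then called. edgeR called 4 of the chains, all higher, where it called 11.3% of the genes higher, and DESeq2 called 7, all higher, against 14.3%. All 10 passed the filter on low values (at least 10 in at least 4 libraries), and their median log2 difference was 1.37, against 0.00 over all genes tested. The groups did not overlap for 3 chains, Col6a1, Col6a2 and Col8a2, where 11.7% of the tested genes were higher without overlap. Without knockout replicate 4 only 3 of the chains were called, Col6a2, Col8a2 and Col6a5, and the count over all genes fell from 3461 to 1740; it was 1909 without control replicate 2 and 2209 without control replicate 4. In bulk tissue, a change in the number of cells of a type and a change in RNA per cell cannot be told apart.

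**Figure D1:**
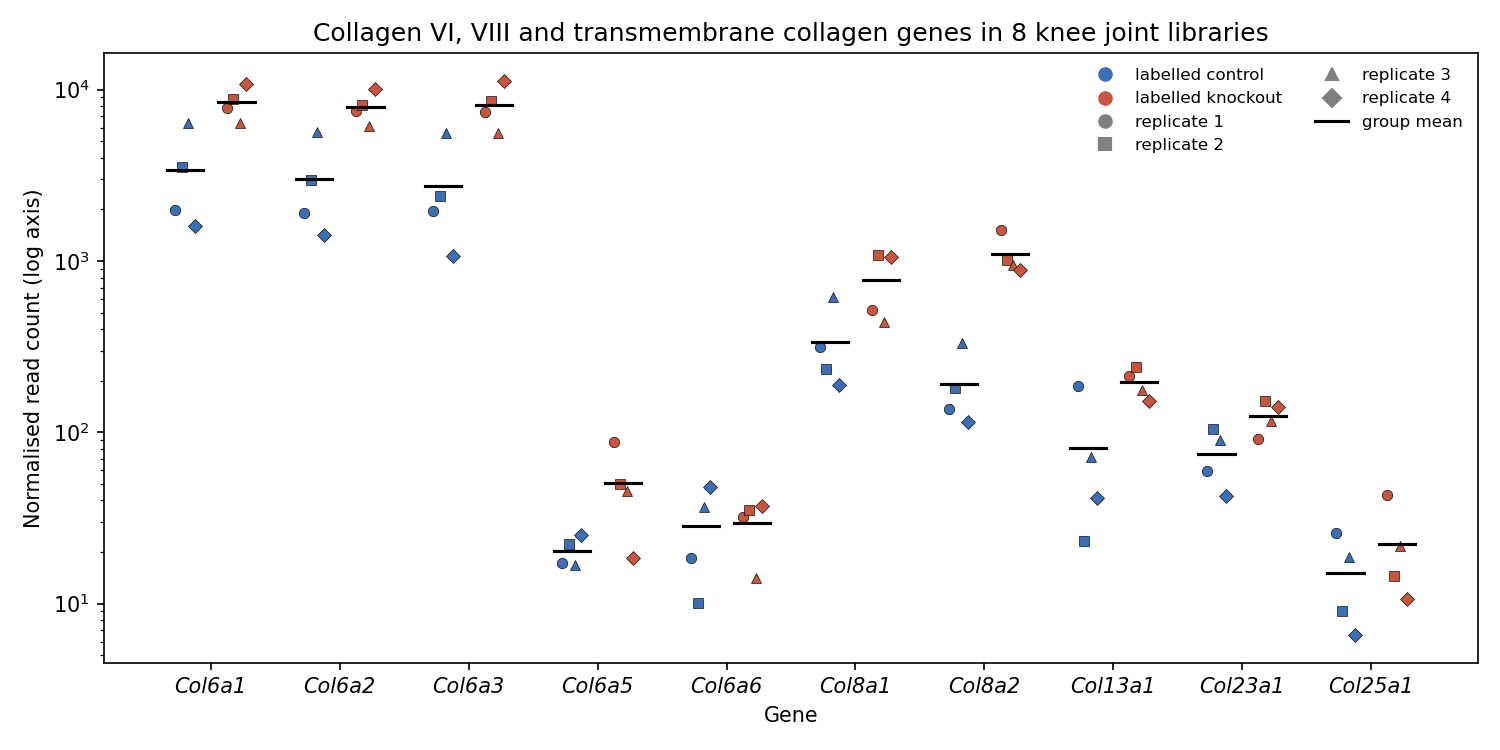
Normalised read count (log axis) of each of the 10 chain genes in each library; blue points are libraries labelled control, red points libraries labelled knockout, marker shapes give the replicate number and black lines the group means. Col6a1, Col6a2 and Col8a2 are separate between the groups, control replicate 3 is the highest control library for 5 of the 10 genes, and Col6a6 shows no separation.

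The first collagen VI chain, Col6a1 (chromosome 10, 76708792 to 76726168, minus strand of mm10), read 1992, 3515, 6415 and 1590 in the control libraries and 7797, 8843, 6429 and 10836 in those labelled knockout. The groups were barely separate, since control replicate 3 at 6415 sat just under knockout replicate 3 at 6429. The mean was 3378 ± 2188 (SD, n = 4) against 8476 ± 1858 (SD, n = 4), a 2.51-fold ratio and a log2 difference of 1.52 (SE 0.38; limma adjusted p = 0.0199). The exact permutation test gave p = 0.0286, the smallest that 4 against 4 libraries allow.

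Col6a2, which lies beside Col6a1 on chromosome 10 (76595762 to 76623630, minus strand), followed the same order of libraries. It read 1915, 2966, 5668 and 1411 in the control libraries and 7554, 8082, 6142 and 10072 in those labelled knockout. Its groups did not overlap, control replicate 3 again being the nearest. The log2 difference was 1.59 (SE 0.36; limma adjusted p = 0.0150, exact permutation p = 0.0286), from 2990 ± 1899 to 7962 ± 1627 (SD, n = 4 each). Under the 17 alternatives of processing, tool and left-out library Col6a2 stayed called, with differences of 1.30 to 1.97.

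Col6a3 (chromosome 1, 90765923 to 90843971, minus strand) encodes the long chain whose C-terminal fragment is released as endotrophin. It read 1968, 2384, 5594 and 1071 in the control libraries and 7357, 8555, 5566 and 11275 in those labelled knockout. Here the groups touched, because control replicate 3 lay above knockout replicate 3. The log2 difference was 1.78 (SE 0.42; limma adjusted p = 0.0168; exact permutation p = 0.0571). For Col6a1 and Col6a3 the call was lost without knockout replicate 4 (limma adjusted p = 0.0615 and 0.0539), and without control replicate 3 the differences were larger, at 1.90 and 2.21.

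Across libraries the proportions of the 3 chains varied far less than their counts. While Col6a1 varied 6.81-fold over the 8 libraries, Col6a2 stood at 0.844 to 0.969 of the Col6a1 count. The log2 ratio was -0.16 ± 0.08 among controls and -0.09 ± 0.04 among the libraries labelled knockout (SD, n = 4), a difference of 0.08 that did not pass the test (exact permutation p = 0.171). Without control replicate 1 it was 0.11 (exact permutation p = 0.0286). Col6a3 stood at 0.988, 0.678, 0.872 and 0.674 of Col6a1 in the control libraries and at 0.944, 0.968, 0.866 and 1.04 in those labelled knockout. Its log2 ratio differed by 0.27 between the groups, and the exact permutation test gave p = 0.2. These are ratios of reads, not of molecules, since the transcripts differ in length. Measured by likeness of profile (the root mean square difference of log2 values over the 8 libraries, each gene centred on its own mean), Col6a2 was the nearest of 10020 genes to Col6a1, at 0.07, and Col6a3 was the 4th, at 0.22, where the median gene lay at 1.0. Among genes outside the 10 chains the nearest to Col6a1 were Wisp2, a secreted CCN family gene, at 0.19, Csrp2, of a LIM domain protein, at 0.21, Nt5dc2 at 0.24, Mmp2, the gelatinase A gene, at 0.24, and Sertad4 at 0.26. Together the 3 collagen VI chains took 0.0551 ± 0.0373% of all normalised reads among controls and 0.178 ± 0.0515% among the libraries labelled knockout (SD, n = 4).

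The alternatives to the Col6a3 chain were scarce. Col6a5 and Col6a6 lie next to each other on chromosome 9 (105856078 to 105960643 and 105687809 to 105828160, minus strand), and Col6a3 made up 93.3% to 99.5% of the reads of Col6a3, Col6a4, Col6a5 and Col6a6 in each library. Col6a5 read 17.3, 22.2, 16.8 and 25.2 in the control libraries and 87.8, 49.6, 45.7 and 18.5 in those labelled knockout. In 3 of the 4 libraries labelled knockout it was above every control, while knockout replicate 4, the highest library for Col6a1, Col6a2 and Col6a3, lay among the controls. The log2 difference of 1.09 did not pass the test (SE 0.42, limma adjusted p = 0.0846); without knockout replicate 4 it was 1.49 (limma adjusted p = 0.0247).

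Col6a6 read 18.4, 10.1, 36.5 and 48.2 in the control libraries and 31.9, 35.1, 14.1 and 37.0 in those labelled knockout. The groups lay across each other, and no difference was detected at 10 to 44 reads per library (log2 difference 0.20, SE 0.50, limma adjusted p = 0.802). On the opposite strand Gm38314 shares 63 exonic bases with it. The ratio of Col6a6 to Col6a3 was 0.00934, 0.00423, 0.00652 and 0.045 in the control libraries and 0.00434, 0.0041, 0.00254 and 0.00328 in those labelled knockout. The groups overlapped, control replicate 2 lying below knockout replicate 1. With 1 added to each value the log2 ratio differed by -1.59, which did not pass after adjustment (exact permutation p = 0.0286, 0.0571 after Benjamini-Hochberg adjustment over the 4 chain ratios tested), and it differed by -0.90 without control replicate 4. The exact permutation p was 0.0571 with 0.1 added in place of 1, and 0.0571 to 0.114 with a library labelled knockout left out. With a control library left out it stayed at 0.0286. Col6a4 had at most 6.84 normalised reads in a library and was below the filter.

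Both collagen VIII chains were called higher, Col8a1 only marginally. Col8a2 (chromosome 4, 126286793 to 126314330, plus strand) read 137, 182, 332 and 115 in the control libraries and 1523, 1009, 945 and 889 in those labelled knockout. The lowest library labelled knockout was thus well above the highest control, again control replicate 3. The mean went from 191 ± 97.6 to 1092 ± 292 (SD, n = 4), a 5.70-fold ratio, and the log2 difference was 2.59 (SE 0.30; limma adjusted p = 0.00397, exact permutation p = 0.0286). It was the largest difference of the 10 chains and stayed called under each of the 17 alternatives, between 2.39 and 2.90.

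Col8a1 (chromosome 16, 57624258 to 57754737, minus strand) read 316, 235, 614 and 188 in the control libraries and 517, 1088, 442 and 1055 in those labelled knockout. Control replicate 3 exceeded knockout replicates 1 and 3, so the groups overlapped. The log2 difference was 1.23 ± 0.40 (SE), and the call was marginal (limma adjusted p = 0.0496, exact permutation p = 0.0857). It was lost in 13 of the 17 alternatives, edgeR (adjusted p = 0.0591) and DESeq2 (adjusted p = 0.0535) among them, with adjusted p-values of 0.0133 to 0.134 over all 17.

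The ratio of Col8a2 to Col8a1 was 0.435, 0.773, 0.540 and 0.610 in the control libraries and 2.95, 0.928, 2.14 and 0.842 in those labelled knockout. The groups did not overlap, and the libraries labelled knockout fell into a higher pair, replicates 1 and 3, and a lower pair, replicates 2 and 4, which are the libraries with the most Col8a1. The log2 ratio differed by 1.36, which did not pass after adjustment (exact permutation p = 0.0286, 0.0571 after Benjamini-Hochberg adjustment over the 4 ratios). Leaving out any of the 4 control libraries raised the exact permutation p to between 0.0857 and 0.114, with differences of 1.23 to 1.5. With a library labelled knockout left out the exact permutation p stayed at 0.0286. Likeness of profile rests on the same library values as this ratio and is no separate evidence. By that measure Col8a2 ranked 4553 of 10020 genes from Col8a1, at 0.90, where the median gene was at 0.92. The genes outside the 10 chains nearest to Col8a1 were Gpr153, an orphan receptor gene, at 0.18, and at 0.21 each Bgn, of the proteoglycan biglycan that binds collagen VI, Ccdc80, Col5a3, a fibrillar collagen chain, and Srpx2, of a secreted sushi-repeat protein. Of these 5 only Gpr153 was called (log2 difference 1.18, limma adjusted p = 0.0413), a call lost in 8 of the 17 alternatives. Col10a1, the short-chain collagen of hypertrophic cartilage and the closest relative of collagen VIII, read 56.2, 14.1, 108 and 61.3 in the control libraries and 809, 43.6, 35.9 and 424 in those labelled knockout. Its high libraries were knockout replicates 1 and 4, a different pair, and it was not called (log2 difference 1.65, SE 1.01, limma adjusted p = 0.257).

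**Figure D2:**
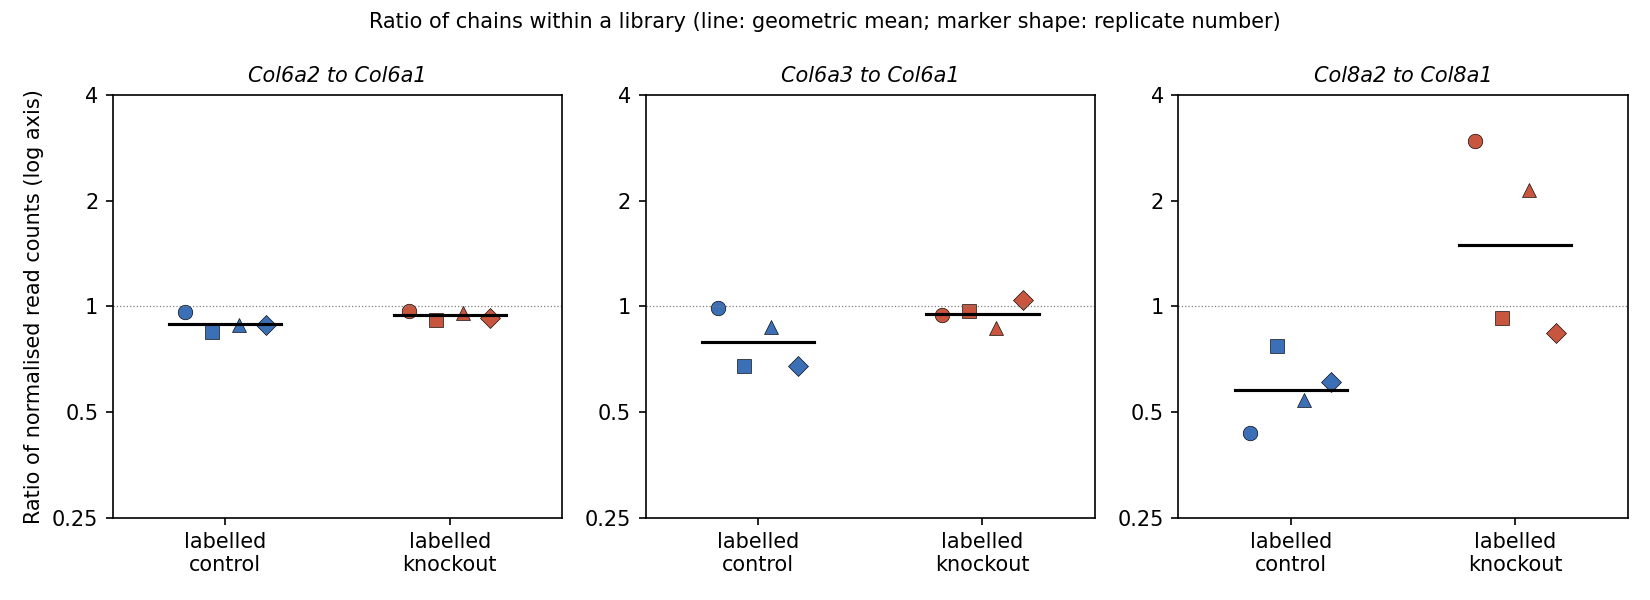
Ratio of normalised read counts of partner chains within each library (log axis, the same scale in each panel), for libraries labelled control (blue) and labelled knockout (red); lines are geometric means and marker shapes replicate numbers. Col6a2 stays at 0.844 to 0.969 of Col6a1 in every library, whereas Col8a2 runs from 0.435 to 0.773 of Col8a1 in the control libraries and from 0.842 to 2.95 in those labelled knockout.

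The membrane-spanning collagens were lower in level and less certain. Col13a1 (chromosome 10, 61838236 to 61979108, minus strand) read 187, 23.2, 72.0 and 41.6 in the control libraries and 214, 241, 177 and 153 in those labelled knockout. Control replicate 1 lay within the range of the libraries labelled knockout and the other 3 controls lay below it. The log2 difference was 1.67 (SE 0.52; limma adjusted p = 0.0432, exact permutation p = 0.0857), and without control replicate 1 it was 2.20 (limma adjusted p = 0.00855). The call was lost in 10 of the 17 alternatives, including edgeR (adjusted p = 0.0986), with adjusted p-values up to 0.103.

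Of the 11 marker lists only that of bone-forming cells is set beside Col13a1, a pairing that was not planned. The mean log2 value of the 6 osteoblast markers (Bglap, Ibsp, Alpl, Sp7, Runx2 and Dmp1) was 9.66, 6.64, 8.29 and 7.51 in the control libraries and 10.27, 9.45, 9.50 and 9.55 in those labelled knockout. The controls stood in the same order for these markers as for Col13a1, but the libraries labelled knockout did not: replicate 2 had the most Col13a1 and the lowest marker value. Of the 6, 4 were called higher, where 11.6% of all tested genes were called higher. Their summed level ran from 1068 to 6844 in the control libraries and from 5670 to 12328 in those labelled knockout. None of these markers was at 0 in any library. Their part in the Col13a1 result was not tested.

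Col23a1 (chromosome 11, 51289920 to 51583918, plus strand) read 59.5, 105, 90.7 and 42.7 in the control libraries and 90.8, 153, 117 and 140 in those labelled knockout. In 3 of 4 libraries labelled knockout it was above every control, with knockout replicate 1 between control replicates 2 and 3. The log2 difference of 0.80 (SE 0.29) did not pass the test (limma adjusted p = 0.0712). DESeq2 put it just under the threshold (adjusted p = 0.0440), as did a scaling of the libraries without muscle, blood and the most abundant genes (limma adjusted p = 0.0415).

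Col25a1 (chromosome 3, 130131501 to 130599877, plus strand) read 26.0, 9.08, 18.7 and 6.57 in the control libraries and 42.9, 14.5, 21.7 and 10.6 in those labelled knockout. The groups overlapped, and at 6 to 43 reads per library no difference was detected (log2 difference 0.54, SE 0.53, limma adjusted p = 0.488). Replicate 1 was the highest library of each group and replicate 4 the lowest.

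Per kilobase of the longest protein-coding transcript in GENCODE, the level of the chains ran from Col6a1 at 824 ± 534 normalised reads per kb among controls (SD, n = 4) through Col6a2 at 643 ± 408, Col6a3 at 273 ± 195, Col8a1 at 66.2 ± 37.4, Col8a2 at 44.2 ± 22.5, Col13a1 at 25.6 ± 23.3 and Col23a1 at 13.2 ± 5.03 to Col6a6 at 3.22 ± 1.96, Col25a1 at 2.25 ± 1.33 and Col6a5 at 2.19 ± 0.433. Neighbours in that order overlapped in range, except that Col23a1 was above Col6a6 in all controls. In the group labelled knockout the order had 2 changes. Col8a2, at 252 ± 67.3 reads per kb, stood above Col8a1 at 152 ± 67.3, and Col6a5, at 5.42 ± 3.07, stood above Col6a6 at 3.36 ± 1.19 and Col25a1 at 3.35 ± 2.15, although in each case the ranges of neighbours overlapped. The other levels there were 2067 ± 453 for Col6a1, 1711 ± 350 for Col6a2, 810 ± 237 for Col6a3, 62.1 ± 12.3 for Col13a1 and 22.1 ± 4.83 for Col23a1. Within every library of both groups Col6a1 was above Col6a2 and Col6a2 above Col6a3 on this scale, which rests on the transcript lengths chosen.

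Genes that act with these collagens, or share their class or a site with them, were taken as 6 lists of 51 genes. Of these, 45 were tested. Of those, 15 were called higher and 3 lower, with a median log2 difference of 0.53, against 11.6% of all tested genes called in each direction and a median of 0.00. The count of 18 depended on single libraries: leaving out control replicate 2 gave 10, control replicate 4 gave 11, knockout replicate 2 gave 8 and knockout replicate 4 gave 6.

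The first list held receptors, binding partners and proteases of collagen VI. Of 12 tested, 6 were called higher and none lower, with a median log2 difference of 0.97. Mmp14, the membrane-type metalloproteinase that cleaves matrix at the cell surface, read 951, 720, 2187 and 605 in the control libraries and 6273, 4581, 3252 and 5370 in those labelled knockout (log2 difference 2.28, SE 0.36, limma adjusted p = 0.00511). Bmp1, of a protease that trims procollagens, rose by 1.18 (SE 0.29, limma adjusted p = 0.0201), a call lost in 5 of the 17 alternatives. Antxr1, of a membrane receptor that binds collagen VI, read 430, 633, 1635 and 514 in the control libraries and 1684, 2755, 1243 and 2770 in those labelled knockout (log2 difference 1.53, limma adjusted p = 0.0246). Its control replicate 3 lay above knockout replicate 3, as for Col6a3, and its call was lost in 6 of the 17 alternatives. The other called partners were Antxr2, of the related receptor, Cspg4, of the NG2 proteoglycan, and Dcn, of decorin.

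Among the collagen receptors 4 of 9 tested were called higher and none lower, with a median of 1.06. Itga11, an integrin chain of fibroblasts, went from 235 ± 107 to 725 ± 94.1 (SD, n = 4; log2 difference 1.71, SE 0.24, limma adjusted p = 0.00422). Lair1, an inhibitory collagen receptor of leukocytes, went from 37.5 ± 16.9 to 113 ± 46.2 (log2 difference 1.58, limma adjusted p = 0.0119), and Mrc2, of the receptor that takes up collagen fragments, from 894 ± 347 to 1964 ± 469 (log2 difference 1.18, limma adjusted p = 0.0135). Ddr2, a receptor kinase for fibrillar collagen, was the other. The receptor kinase Ddr1 had a log2 difference of -0.02 (SE 0.14).

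Of the 6 convertases and sheddases, 2 were called higher: Adam10 (log2 difference 0.40, SE 0.09, limma adjusted p = 0.0149) and Adam17 (0.34, SE 0.11, limma adjusted p = 0.0471), the latter lost in 11 of the 17 alternatives. Furin, of the convertase known to cut membrane collagens, had 1109 ± 85.6 among controls and 1285 ± 133 among the libraries labelled knockout (SD, n = 4; log2 difference 0.21, limma adjusted p = 0.140). Of 6 tested genes for other membrane proteins with a collagen domain 2 were called higher, the scavenger receptor genes Msr1 (log2 difference 1.11, limma adjusted p = 0.0156) and Colec12 (1.17, limma adjusted p = 0.0199), the latter lost in 4 of the 17 alternatives. Without knockout replicate 4 the call of Msr1 was lost too (limma adjusted p = 0.051). Col17a1, the membrane collagen of epithelia, had at most 13.2 normalised reads in a library and was below the filter.

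The last list was of the neuromuscular junction, a site at which collagen XIII is well known. Of 11 tested, 3 were called lower and 1 higher, with a median log2 difference of -0.58. Colq, of the collagen tail of acetylcholinesterase, fell from 105 ± 27.5 to 57.3 ± 7.50 (SD, n = 4; log2 difference -0.84, SE 0.21, limma adjusted p = 0.0191; 0.0541 without knockout replicate 4). Rapsn (-0.45, limma adjusted p = 0.0348) and the receptor subunit gene Chrnb1 (-0.53, limma adjusted p = 0.0499) were the others, with the call lost in 8 and 12 of the 17 alternatives. Agrn, of the proteoglycan agrin, which many tissues besides nerve make, rose by 0.48 (SE 0.11, limma adjusted p = 0.0153).

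**Figure D3:**
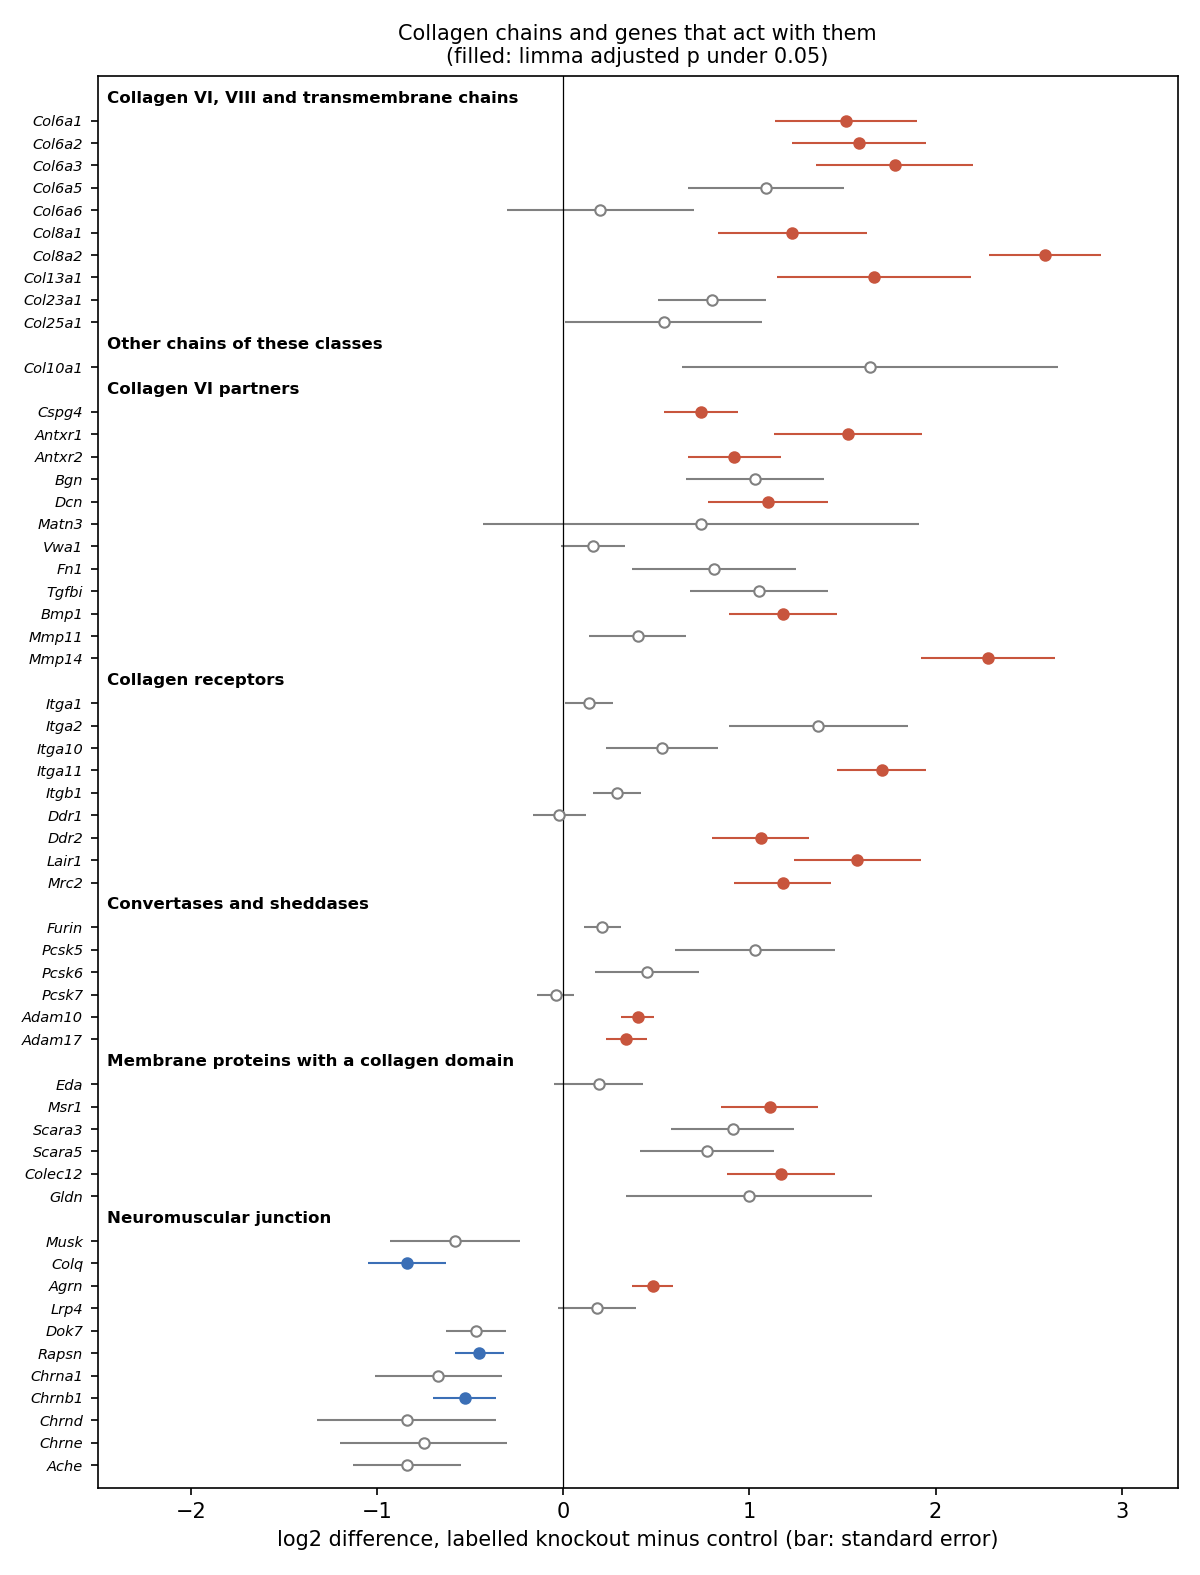
Log2 difference, knockout-labelled libraries minus controls, with its standard error, for the 10 chains and for the tested genes of the 6 lists. Filled red and blue points passed the limma test (adjusted p under 0.05) higher and lower, and open grey points did not. Col8a2 at 2.59 and Mmp14 at 2.28 lie farthest to the right, and most neuromuscular junction genes lie left of 0.

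Markers of several cell types moved with the groups, where 11.6% of all tested genes were called in each direction. Of 10 fibroblast markers 6 were called higher, Pdgfra, Col1a1, Col1a2, Col3a1, Fap and Lum. Dpt, Pi16, Clec3b and Thy1 were not called, and the median log2 difference of the 10 was 1.45. The summed level of the 10 ran from 34432 to 115017 in the control libraries and from 155359 to 251946 in those labelled knockout. Most of each sum came from the fibrillar collagen genes Col1a1, Col1a2 and Col3a1. The mean log2 value of the 10 was 10.64, 10.24, 11.47 and 10.23 in the control libraries. It was 11.86, 12.41, 11.39 and 12.35 in the libraries labelled knockout. Control replicate 3 and knockout replicate 3 were thus as close as they were for the collagen VI chains. Of 10 skeletal muscle markers 5 were called lower (median -0.81, sums of 2110806 to 2267705 against 982646 to 1435544), and of 8 macrophage markers 7 were called higher (median 1.36, sums of 1429 to 3300 against 4931 to 6858). Erythroid markers had a median of -1.91 with none of 5 called, on sums of 14262 to 83595 against 3766 to 37348. For vessels, where collagen VIII is known, the 6 endothelial markers had none called and a median of -0.14 (sums of 4275 to 5679 against 3295 to 6927). Of 5 smooth muscle and pericyte markers 1 was called higher, Pdgfrb (log2 difference 0.88, limma adjusted p = 0.00767), and the median was 0.14. Of 9 chondrocyte markers, which include Acan and Col2a1, 1 was called higher, a share near that of all tested genes (median 0.79, sums of 3729 to 11368 against 9329 to 13078). No marker of these lists was at 0 in any library, and the part of these shifts in the collagen results was not tested.

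How far each difference depended on the processing or on 1 library is drawn in the plot of alternatives by gene.

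**Figure D4:**
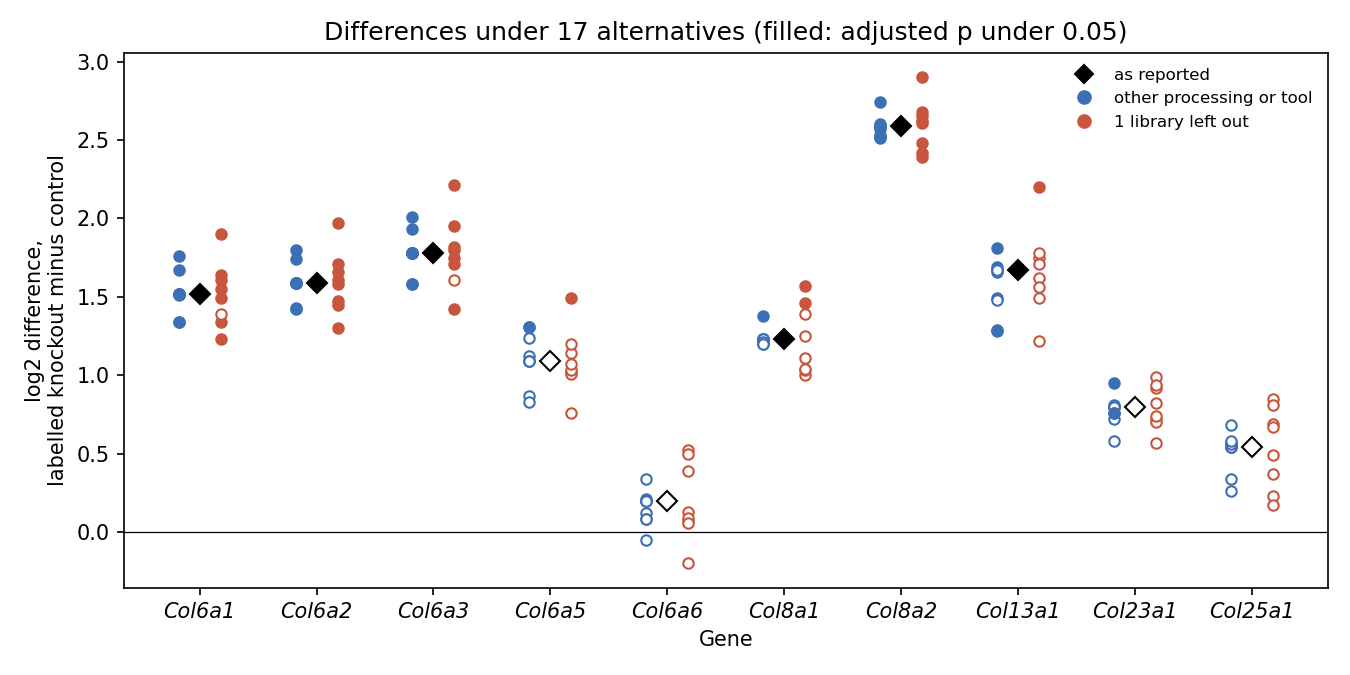
Log2 difference of each chain as reported (black diamonds), under other processing or another tool (blue) and with 1 library left out (red); filled symbols have an adjusted p under 0.05. Col6a2 and Col8a2 are filled throughout, Col6a1 and Col6a3 have 1 open symbol each, and only Col6a6 crosses 0.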

How the data were processed

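Poly-A RNA of 8 mouse knee joint libraries was measured, 4 in each labelled group. Per the submitters' processing notes and the series design text, the authors used HISAT2, mm10, featureCounts and DESeq2; the versions, annotation, strand setting and filter are not given in the sources used here. The deposited signal is a normalised count: gene reads divided by a size factor of the library. Every deposited value was a whole multiple of its library's step within 0.01, and the recovered reads, 13991000 to 17411617 per library, served the count tests. Replicates within a group differed by more than sampling noise (chi-square per degree of freedom 25.8 to 66.1).

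Values were tested as log2(value + 1) with limma 3.58.1 (R 4.3.3, empirical Bayes with a trend) over the 14949 genes with at least 10 in at least 4 libraries, with Benjamini-Hochberg adjustment and a threshold of 0.05. Adding 1 understates the change of low genes. Single values and ratios were tested by exact two-sided permutation over 70 assignments. Alternatives were pseudocounts of 0.1 and 10, TMM, quantile and reduced scaling, no filter, a replicate block, leaving out each library, edgeR 4.0.16 and DESeq2 1.42.0 on recovered reads; edgeR called 3324 genes and DESeq2 4125. On simulated data with 194 changed genes among 14719, limma found 55.6% of changes of log2 1 and 95.8% of log2 2. Of its 155 calls there, 9 were false. A larger share of genes was called in the data themselves, so these rates may not carry over.

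Named were all 10 chains, Loxl2, at most 3 called genes in each direction per list by smallest p, and the 5 genes nearest in profile to Col6a1 and to Col8a1 with a mean of at least 100. Other list genes named (Antxr2, Cspg4, Dcn, Ddr1, Ddr2, Furin, Col10a1, Col6a4 and Col17a1) fall outside this rule and were picked after seeing their values. Marker genes of cell types that are named also fall outside it. The chains and lists were chosen with earlier results of these data known. Marker lists not described with the results had no gene called: neutrophil (none of 6, median log2 difference -0.59), adipocyte (none of 5, -0.17) and Schwann cell (none of 5, -0.25).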

Additional observations from a re-analysis of the deposited data

Results flagged for a closer look

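Col6a6 in knockout replicate 3 stood apart from its group on the log2(value + 1) scale. It stood at 3.92, against 5.04, 5.17 and 5.25 in the other libraries labelled knockout, a gap of 0.845 of the group's range on that scale. The normalised read counts were 14.1 against 31.9, 35.1 and 37.0, on which the gap is a smaller share of the range. Chance flags about 1 in 20 such groups, and 28 were checked.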

How the results depend on the processing

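Without 1 library the number of genes called by limma ran from 1740 to 3832, against 3461 with all, that of the 10 chains from 3 to 5 against 6, that of the list genes from 6 to 24 against 18, and the number of chains with an exact permutation p under 0.05 from 1 to 4 against 3. Whether the replicate numbers pair the samples is not given by the labels. Correlations of the deviations from the group means were 0.21, -0.12, -0.23 and -0.06 for samples of the same number. For samples of different numbers they ran from -0.16 to 0.27. These values show no clear pairing but cannot exclude a weak one. With the replicate block 2018 genes, 4 chains and 10 list genes were called, Col8a1 and Col13a1 being lost. Leaving out 1 library moved the log2 ratio difference of Col6a2 to Col6a1 between 0.05 and 0.11, that of Col6a6 to Col6a3 between -2.0 and -0.90, and that of Col8a2 to Col8a1 between 1.04 and 1.64. With a pseudocount of 0.1 the Col6a6 to Col6a3 difference was -1.57 (exact permutation p = 0.0571). Under the replicate block the ratio differences were -1.59 and 1.36 (exact sign-flip permutation p = 0.125 each, the smallest that 4 pairs allow). Col6a6 changed sign under quantile normalisation (-0.05) and without control replicate 2 (-0.20), and its differences without 1 library ran from -0.20 to 0.52. The causes were not tested. edgeR called 4 chains, without Col8a1 and Col13a1, and DESeq2 7, adding Col6a5 and Col23a1 and without Col8a1. Few reads limit Col6a5, Col6a6 and Col25a1.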
